A study of Homo sapiens with 12 samples.

Results

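Aminoacyl-tRNA synthetases attach each amino acid to its tRNAs, and the 35 synthetase genes described here are 20 cytosolic and 15 mitochondrial ones. They were chosen by gene name, the mitochondrial members by symbols that end in 2, and they are 35 of the 43828 gene places listed in the study's tables. The study sequenced total RNA of CCRF-CEM, an established human leukemia line of T lymphoblasts, in 12 libraries. There were 3 libraries each of wild-type parent cells in DMSO, parent cells in 100 nM camptothecin for 4 h, SLFN11 knockout cells in DMSO, and SLFN11 knockout cells in 100 nM camptothecin for 4 h. All cells were kept in RPMI1640 medium with 10% serum. The labels do not say by what method SLFN11 was disrupted, whether the knockout line is a clone, or whether the 3 libraries of a group come from separate cultures. Spread between libraries of a group, on which every p-value rests, may thus be technical.

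Most cytosolic synthetases are separate enzymes, and several of them sit together with the scaffold proteins AIMP1, AIMP2 and EEF1E1 in the multisynthetase complex. Mitochondria use their own set of nuclear-encoded synthetases, while GARS and KARS serve both compartments. When amino acids run short, uncharged tRNAs activate the kinase GCN2, and the transcription factor ATF4 then raises many cytosolic synthetase genes together with genes of amino acid synthesis and transport. SLFN11 is a putative helicase that sensitizes cells to camptothecin, a topoisomerase I poison, and it has been described as cutting tRNAs, among them those for leucine and serine.

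ATF4 and its C/EBP partners bind composite elements with the letters TGATGNAA, and the start regions of several members carried these letters close to the start site. The matches of the 6 cytosolic holders are shown because 5 of them (all but MARS) were lower in untreated knockout cells, a choice that rests on these data. EPRS, GARS, SARS and WARS were lower too and held no match. LARS and YARS, also lower, had no start region to read. RefSeq start regions on GRCh38.p14, running from 250 bases before to 50 after the start, matched 29 of the 35 members. A match on either strand was present in 3.62% of 35116 RefSeq start regions of this length, and in 7 of the 29 members: AARS, CARS, IARS, MARS, NARS, TARS and the mitochondrial YARS2. In the lines that follow the match is in capitals, with up to 30 bases on each side and no more than 30 bases past the start, read 5′ to 3′ along the gene.
CARS (chr11:3057394-3057455, minus strand): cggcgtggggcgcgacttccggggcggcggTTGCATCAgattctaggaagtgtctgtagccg
MARS (chr12:57488034-57488097, plus strand): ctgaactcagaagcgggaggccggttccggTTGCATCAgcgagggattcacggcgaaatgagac
IARS (chr9:92293673-92293740, minus strand): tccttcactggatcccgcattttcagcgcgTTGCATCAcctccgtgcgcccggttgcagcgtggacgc
TARS (chr5:33440937-33440994, plus strand): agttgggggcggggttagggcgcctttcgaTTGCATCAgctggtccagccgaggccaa
NARS (chr18:57621807-57621852, minus strand): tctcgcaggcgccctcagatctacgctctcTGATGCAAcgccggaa
AARS (chr16:70289656-70289723, minus strand): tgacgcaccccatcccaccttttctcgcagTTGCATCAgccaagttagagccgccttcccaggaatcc

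In CARS, MARS, IARS, TARS and NARS the match began at positions -2, -4, -13, 2 and 14 relative to the start, and in AARS at -187. TTGCATCA is the reverse complement of TGATGCAA, so all 6 carry the same 8 letters on the 2 strands. The YARS2 match, not shown above, reads TGATGGAA and begins at -197, and YARS2 was not called in untreated cells. The E-box CACGTG, which does not overlap TGATGNAA in its letters, was present in 7.26% of all start regions and in 4 of the 29 members (IARS, CARS2, EARS2 and MARS2). These motifs were chosen with results of these data known, a match is not a binding site, and no test was made.

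The members took 150446 to 567906 exon reads per library, out of 135592046 in the deepest library, parent control replicate 1, and out of 42439957 to 63606344 in the other 11. Parent control replicate 1 stood apart from its group. Set against the other parent controls, its exon counts gave a chi-square of 136.5 and 172.9 for each degree of freedom, while other pairs within groups gave 4.71 to 16.9, and this measure grows with depth. It had the lowest share of intron reads, 26.3% against 28.6% to 33.6% elsewhere, and results that lean on it are given with and without it. SLFN11 itself had 117, 107 and 112 CPM (exon counts scaled to a common library total) in untreated and 119, 123 and 119 CPM in treated parent libraries. The knockout had 88.7, 86.1 and 85.9 CPM untreated and 88.4, 91.7 and 89.4 CPM treated. SLFN11 RNA was thus lower but still present in all knockout libraries, and counts over the whole gene do not show what was edited. All 11 T lymphoblast markers were expressed, and their sum was 1769 to 1888 CPM in untreated parent, 1361 to 1371 CPM in treated parent, 2041 to 2053 CPM in untreated knockout and 1736 to 1818 CPM in treated knockout libraries. The 6 myeloid and 4 erythroid markers summed to at most 1.5 and 0.961 CPM. The 4 epithelial and fibroblast markers summed to 1.12 to 2.14 CPM in parent and 6.94 to 8.35 CPM in knockout libraries, and the 5 B-lineage markers to 26.2 to 35.4 CPM and 39.4 to 45.5 CPM. MS4A1, HBB and COL1A2 were at 0 in all libraries, but other genes of the same lists were not. CD79A, highest of the B-lineage markers, had a median of 23.8 CPM, and EPCAM, highest of the epithelial and fibroblast ones, 4.19 CPM. The part of the differences in marker sums in the results was not tested.

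In untreated parent cells the cytosolic synthetases were the more abundant set. Per length, in RPKM (CPM divided by kilobases of exon), their median level was 35.8 and that of the mitochondrial members was 8.46. FARSA, the catalytic subunit for phenylalanine, led at 84.6 ± 10.96 RPKM (SD, n = 3), followed by IARS for isoleucine at 64.1 ± 5.66 and NARS for asparagine at 58.5 ± 10.1 RPKM. The spreads of IARS, NARS, GARS (56.3 ± 13.5 RPKM) and TARS (51.24 ± 14.98 RPKM) overlapped, so their order is not resolved. FARSB, the other phenylalanine subunit, stood at 16.8 ± 1.88 RPKM. The lowest cytosolic members were HARS at 9.31 ± 0.905 and CARS at 5.95 ± 0.139 RPKM. Among mitochondrial members IARS2 was highest at 27.7 ± 0.111 RPKM, above 8 of the cytosolic members by its mean, though within the spread of YARS, and PARS2 was lowest at 3.15 ± 0.345 RPKM. The length used is that of all annotated exons of a gene, 10038 bases for CARS, so genes with long alternative exons are set low by this scale.

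**Figure D1:**
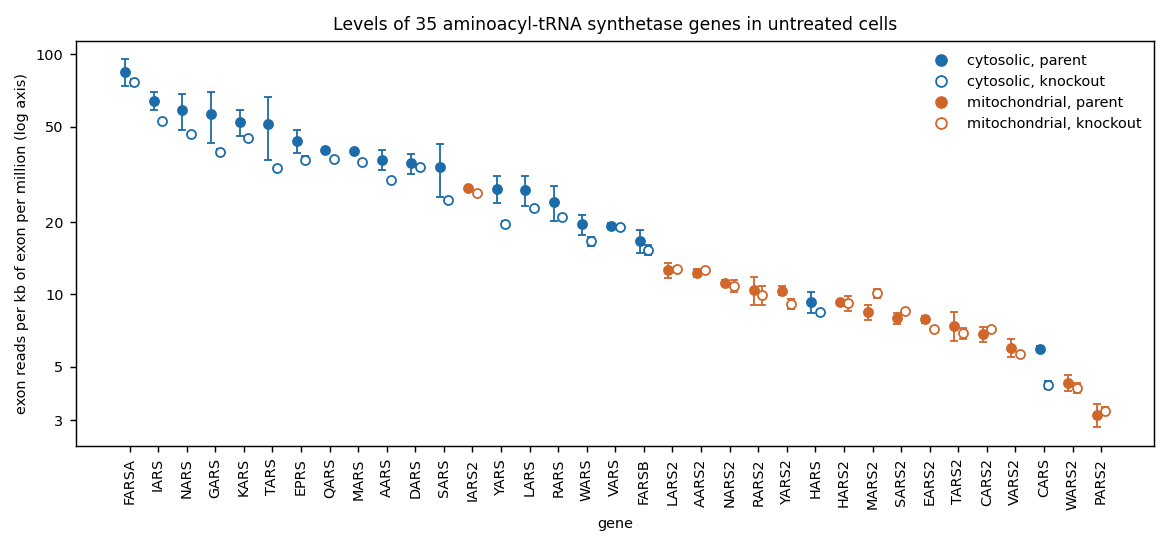
Level of each of the 35 synthetase genes in untreated parent (filled) and untreated knockout cells (open), in RPKM on a log axis. Points are means and bars the SD of 3 libraries, and genes are ordered by the parent level, from FARSA at 84.6 down to PARS2 at 3.15.

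The first comparison asked how untreated cells of both genotypes differ. Cytosolic synthetase RNAs were lower in the knockout: 11 of 20 passed the test downwards (AARS, CARS, EPRS, GARS, IARS, LARS, NARS, SARS, TARS, WARS and YARS), against 7.44% of the 23546 genes tested. No cytosolic member was called higher, by edgeR at an unadjusted p under 0.05 (0 of 20) or by DESeq2 (0 of 20). In both directions together 15.7% of all genes were called. All 20 log2 differences lay below 0, with a median of -0.24 beside -0.01 for all genes. For DARS the sign leaned on parent control replicate 1, which held 151 CPM. The other parent controls held 127 and 132 CPM of DARS and the knockout controls 131, 135 and 129 CPM. Of the 15 mitochondrial members MARS2 was called higher (8.26% of all genes were), and their median was -0.04. No mitochondrial member was called lower by edgeR or DESeq2, and 2 had an unadjusted p under 0.05 in that direction. The 3 knockout and 3 parent libraries did not overlap for 15 cytosolic and 4 mitochondrial members, while 32.5% of all genes showed no overlap.

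TARS, the threonine enzyme (hg19 chromosome 5, 33440801 to 33469643), had 365, 229 and 225 CPM in the parent and 182, 179.9 and 177 CPM in the knockout. Parent control replicate 1 was far above the other parent controls, and all 3 knockout libraries lay below the whole parent group. Its log2 difference was -0.60 ± 0.14 (SE; edgeR adjusted p = 0.013), or -0.34 without that library (adjusted p = 9.94e-07). GARS, for glycine (chromosome 7, 30634296 to 30673648), had 298, 198 and 205 CPM in the parent and 160.0, 168 and 159.6 CPM in the knockout. Its groups did not overlap either, and its difference was -0.52 ± 0.12 (edgeR adjusted p = 0.00603), or -0.31 without parent control replicate 1 (adjusted p = 2.33e-06).

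CARS, for cysteine (chromosome 11, 3022151 to 3078842), had 61.3, 59.2 and 58.6 CPM in the parent and 41.6, 44.0 and 40.9 CPM in the knockout. Here parent control replicate 1 was close to its group, and the groups lay well apart. The difference was -0.50 ± 0.06 (edgeR adjusted p = 1.39e-05), and -0.48 without parent control replicate 1. YARS, for tyrosine (chromosome 1, 33240839 to 33283753), had 262, 210.4 and 208 CPM in the parent and 157, 165 and 162 CPM in the knockout. The difference was -0.49 ± 0.08 (adjusted p = 0.00032), again with no overlap, and -0.37 without that library.

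SARS and LARS charge the serine and leucine tRNAs. SARS (chromosome 1, 109756539 to 109780790) had 167, 112 and 111 CPM in the parent and 95.1, 95.0 and 94.5 CPM in the knockout. The groups did not overlap, and the difference was -0.46 ± 0.12 (edgeR adjusted p = 0.0178), or -0.23 without parent control replicate 1 (adjusted p = 0.000163). LARS (chromosome 5, 145492600 to 145562222) had 257, 198 and 208 CPM in the parent and 186, 185 and 189 CPM in the knockout. Its difference of -0.24 ± 0.08 was close to the threshold (adjusted p = 0.0448) and stood at -0.12 without parent control replicate 1 (adjusted p = 0.05). Their mitochondrial counterparts did not pass the test, with LARS2 at 0.01 (adjusted p = 0.935) and SARS2 at 0.10 (adjusted p = 0.357).

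The remaining called cytosolic members had log2 differences of -0.34 for NARS, -0.28 for AARS and IARS, -0.26 for EPRS, the fused glutamate and proline enzyme, and -0.24 for WARS. Those of NARS, AARS, IARS, EPRS and WARS were -0.19, -0.20, -0.20, -0.17 and -0.16 with parent control replicate 1 left out, and each still passed. Members that stayed uncalled included VARS for valine (-0.01, adjusted p = 0.92) and DARS for aspartate (-0.06, adjusted p = 0.634). By location, 3 of 8 members of the multisynthetase complex were called lower (EPRS, IARS and LARS) and 8 of 12 outside it. By catalytic fold, 5 of 9 class I and 5 of 10 class II enzymes were, EPRS holding both folds. These splits were made after the values had been seen and were not tested. The scaffold genes did not pass the test, with AIMP1 at -0.14 (adjusted p = 0.143), AIMP2 at -0.06 and EEF1E1 at -0.06. Of the 9 called members with a RefSeq start region 5 held TGATGNAA (CARS, TARS, IARS, AARS and NARS), and of the 7 cytosolic members not called MARS did.

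Parent control replicate 1 had the highest level of its group for 17 of the 20 cytosolic members. Summed over these 20 genes it held 4198 CPM, the other parent controls 3401 and 3431 CPM, and the knockout controls 3016, 3036 and 3020 CPM. Without it 12 cytosolic members were called lower (8.21% of all genes were) and CARS2 and MARS2 among the mitochondrial ones higher (9.59%), LARS leaving and MARS and QARS joining, and the median was -0.16. Leaving out knockout control replicate 1, 2 or 3 gave 6, 7 and 6. Of all genes 1028, 998 and 1020 were then called lower, beside 1752 of 23546 with all libraries. AARS, CARS, GARS, IARS, TARS and YARS passed in each of the 12 fits without 1 library, and the MARS2 call ended without knockout control replicate 1 or 2. With only the 6 untreated libraries fitted, the count was 2 (CARS and YARS), where 788 of 21724 genes were called lower. The mitochondrial sum was 603 to 629 CPM in the parent and 601 to 610 CPM in the knockout, so these groups overlapped. In these libraries of whole cultures, fewer cells that express a gene and less of its RNA per cell cannot be told apart.

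**Figure D2:**
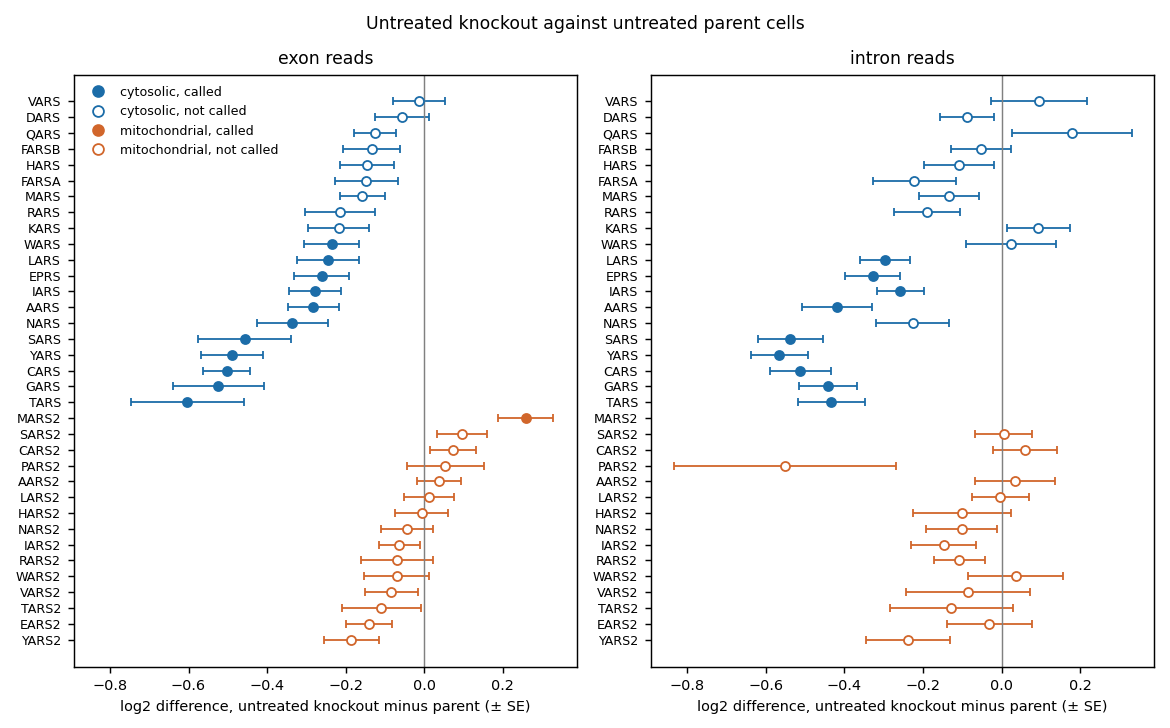
Log2 difference between untreated knockout and untreated parent cells for each member, from exon reads (left) and intron reads (right), with SE bars. Filled points passed edgeR's test at an adjusted p below 0.05: 11 cytosolic members lie left of 0 in exon reads and 9 in intron reads, and MARS2, which has no intron, is the mitochondrial member called.

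Intron reads, which come mostly from RNA not yet spliced, gave a separate view of the same libraries. They were lower in the knockout for 9 of 20 cytosolic members, all of them also called in exon reads (AARS, CARS, EPRS, GARS, IARS, LARS, SARS, TARS and YARS), against 6.43% of the 19908 genes tested. The count was 9 in each of the 12 fits that left out 1 library. Of 14 mitochondrial members with enough intron reads none was called by edgeR (8.17% of all genes were higher), and 1 had an unadjusted p under 0.05, downwards.

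YARS introns held 107, 104 and 106 CPM of the intron table in the parent and 71.5, 67.9 and 74.8 CPM in the knockout, a difference of -0.57 ± 0.07 (edgeR adjusted p = 6.34e-06). SARS introns held 60.2, 54.18 and 53.7 CPM against 38.1, 41.7 and 36.1 CPM, a difference of -0.54 ± 0.08 (adjusted p = 6.15e-05). CARS introns held 59.8, 68.0 and 66.1 CPM against 41.4, 47.4 and 47.1 CPM, a difference of -0.51 ± 0.08 (adjusted p = 5.82e-05). In all 3 genes the groups were apart, as in 31.8% of all genes in introns, and parent control replicate 1 was not far above the other parent controls for YARS and SARS and was the lowest for CARS. WARS and NARS, called in exon reads, stood at 0.02 (adjusted p = 0.918) and -0.23 (adjusted p = 0.112) in introns. The exon and the intron difference were then tested against each other in the same model. None of the 34 members with both kinds of reads was called by edgeR, while 0.732% of the 17351 genes tested were, 0.363% upwards. An unadjusted p under 0.05, for which no share over all genes is given here, was found for 3 members.

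The genes that act with ATF4 were followed as a list of 35, which was drawn up with earlier results known. Of 33 tested, 14 were lower in the untreated knockout and 1 was higher, with a median of -0.23. ATF5, an ATF4-related factor, was lower by 1.10 on the log2 scale, ATF4 itself stood at -0.61, the glutathione-degrading enzyme CHAC1 at -0.60 and the translation repressor EIF4EBP1 at -0.56. CBS, of cysteine synthesis, was the member called higher (1.13). When parent control replicate 1 was left out the counts were 17 and 4, with ATF5 at -1.08 and ATF4 at -0.46. Of all genes 8.21% were then lower and 9.59% higher. Genes next to charging in translation were followed as well, and 7.44% of all genes were called lower in this comparison. Of 5 cytosolic elongation factor genes 3 were lower (EEF1A1 -0.33, EEF1B2 -0.31 and EEF2 -0.31), and of 4 mitochondrial ones GFM1 was (-0.28). Of 35 genes of tRNA maturation and export 5 were lower, among them the tRNA ligase genes DDX1 (-0.74) and RTCB (-0.54) and the tRNA exporter XPOT (-0.50), and RPP25 was higher (2.58), a call that ended without parent control replicate 1. Of 22 RNA polymerase III genes POLR3B and POLR3C were lower, and of 7 mitochondrial charging partners MTO1 was (-0.21), counts that do not set these lists apart from all genes. Without parent control replicate 1 the last 2 counts were 1 and 0.

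The second comparison concerned parent cells, with camptothecin set against DMSO. Here the members divided. Cytosolic synthetases fell in 7 of 20 cases and rose in none (17.1% of all genes fell and 16.8% rose, 33.9% in all), while 5 of 15 mitochondrial members rose and 5 fell. DESeq2 likewise called 0 cytosolic members higher, and 0 had an unadjusted p under 0.05 in edgeR. The median was -0.21 for cytosolic and -0.06 for mitochondrial members, beside 0.01 for all genes. Groups did not overlap for 10 cytosolic and 11 mitochondrial members, against 44.8% of all genes.

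DARS, for aspartate (chromosome 2, 136664246 to 136743669), had 151, 127 and 132 CPM before and 93.0, 92.6 and 92.8 CPM after camptothecin. The treated libraries were nearly equal and all below the controls, a change of -0.56 ± 0.07 (edgeR adjusted p = 6.75e-06). WARS, for tryptophan (chromosome 14, 100800124 to 100843141), went from 119, 105 and 100.0 CPM to 78.3, 77.1 and 73.6 CPM, a change of -0.50 ± 0.07 (adjusted p = 3.04e-05). IARS (chromosome 9, 94972488 to 95056037) went from 522, 453 and 447 CPM to 334, 344 and 335 CPM, a change of -0.49 ± 0.07 (adjusted p = 1.86e-05). In each of these genes the treated and untreated libraries were apart. EPRS fell by 0.44, FARSB by 0.40, KARS by 0.25 and RARS by 0.24 on the log2 scale. The RARS call ended in 13 of 19 alternatives and the KARS call in 5.

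Of the 7 that fell, DARS, EPRS, IARS, KARS and RARS belong to the multisynthetase complex (5 of 8) and WARS and FARSB do not (2 of 12), a split made after the values were seen and not tested. The scaffold genes stood at 0.00 (AIMP1), -0.03 (AIMP2) and 0.06 (EEF1E1) and did not pass the test. LARS and SARS stood at -0.19 (adjusted p = 0.0794) and -0.17 (adjusted p = 0.319), and with parent control replicate 1 left out at -0.06 (adjusted p = 0.313) and 0.06 (adjusted p = 0.317), so the direction for SARS turned. Treated parent libraries had 199.5, 194 and 189 CPM of LARS and 119, 115 and 114 CPM of SARS. The LARS groups overlapped by 1 treated library, and the treated SARS libraries lay between parent control replicate 1 and the other parent controls.

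With parent control replicate 1 left out, 6 cytosolic members fell (17.4% of all genes did), RARS leaving the list, and CARS rose by 0.14 (adjusted p = 0.0377). The cytosolic median was then -0.05 in place of -0.21, so the size of the median rested on that library. DARS (-0.48), WARS (-0.42), IARS (-0.41), EPRS (-0.34), FARSB (-0.31) and KARS (-0.14) still fell. Leaving out parent control replicate 2 or 3 instead gave 11 in each case, where 4114 of 24245 and 4105 of 24433 genes fell.

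Among mitochondrial members, YARS2, for tyrosine (chromosome 12, 32880423 to 32908835), rose from 22.3, 21.4 and 23.3 CPM to 32.2, 31.8 and 30.7 CPM. The groups were well apart and the change was 0.50 ± 0.07 (edgeR adjusted p = 2.75e-05). MARS2, for methionine (chromosome 2, 198570086 to 198573112), rose from 23.6, 26.0 and 27.2 CPM to 36.2, 36.5 and 33.3 CPM, a change of 0.47 ± 0.07 (adjusted p = 5.48e-05). MARS2 lies wholly inside the annotated gene AC011997.1, whose own row stood at -0.31 (adjusted p = 0.455), and counts of overlapping genes cannot be told apart here. PARS2, for proline (chromosome 1, 55222570 to 55230186), rose from 8.23, 7.32 and 6.61 CPM to 9.33, 9.70 and 9.84 CPM, a change of 0.37 ± 0.10 (adjusted p = 0.00606). AARS2 rose by 0.16, a call that ended in 9 of 18 alternatives, and each of its exon reads lies where another annotated gene overlaps.

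The 5 mitochondrial members that fell were LARS2, NARS2, IARS2, CARS2 and RARS2. LARS2, for leucine (chromosome 3, 45429997 to 45590912), went from 72.9, 65.0 and 63.6 CPM to 49.0, 44.0 and 46.8 CPM. All treated libraries lay below the controls, and the change was -0.53 ± 0.06 (edgeR adjusted p = 6.8e-06). NARS2, for asparagine (chromosome 11, 78147006 to 78285918), went from 35.7, 35.8 and 34.2 CPM to 26.7, 26.0 and 28.04 CPM, a change of -0.39 ± 0.07 (adjusted p = 0.000222). IARS2 fell by 0.35, CARS2 by 0.34 and RARS2 by 0.30, and RARS2 was no longer called when parent control replicate 1 was left out (-0.18, adjusted p = 0.0615) or when treated parent replicate 1 or 2 was. SARS2, with 29.4, 28.5 and 26.7 CPM before and 28.1, 28.1 and 28.2 CPM after, stood at -0.01 (adjusted p = 0.965). For SARS2 only 8.33% of exon reads lay outside other genes.

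**Figure D3:**
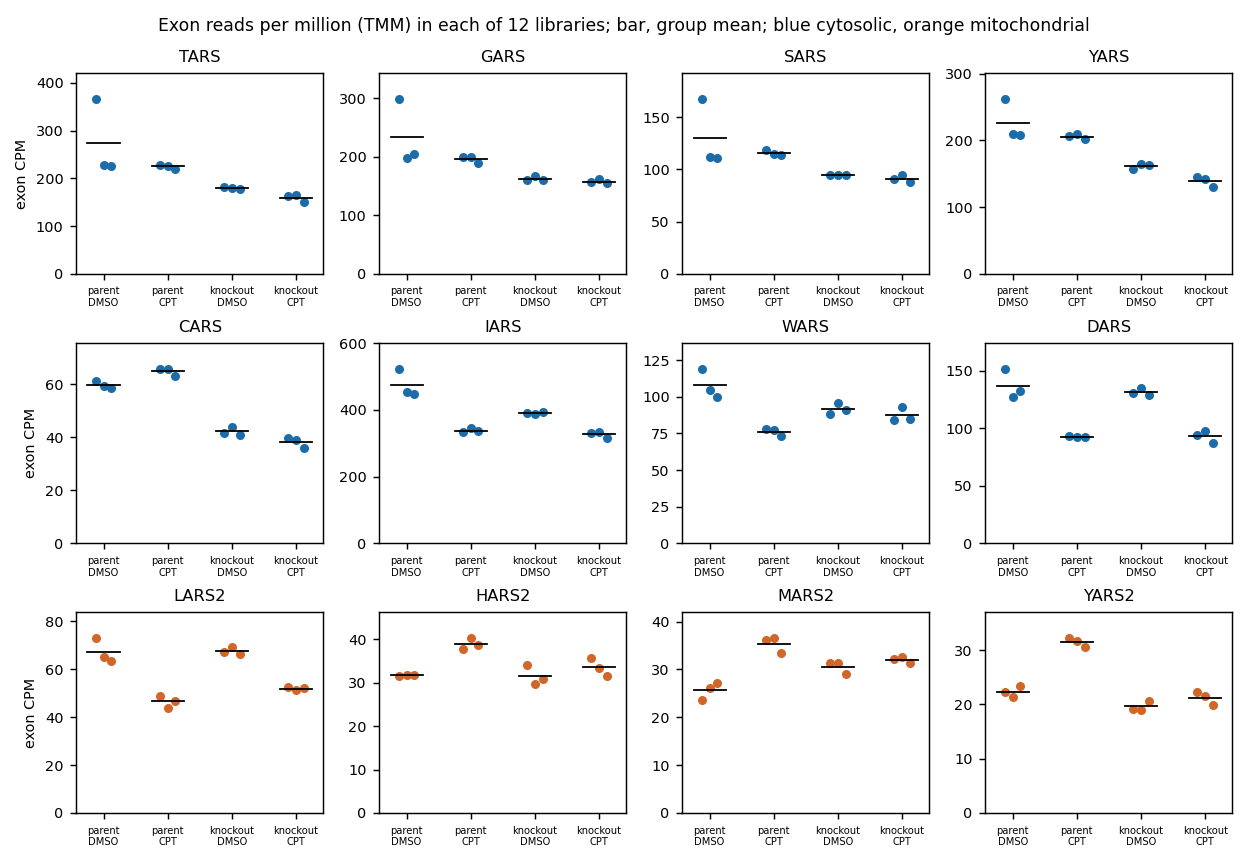
TMM-scaled exon CPM in each of the 12 libraries for 12 members, 8 cytosolic (blue) and 4 mitochondrial (orange), with the mean of 3 libraries as a bar and an axis from 0. TARS, GARS and SARS show parent control replicate 1 above its group, DARS and LARS2 fall in both genotypes, and YARS2 and MARS2 rise in treated parent libraries.

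HARS and HARS2 lie head to head on chromosome 5, and 184 bases of their 300-base RefSeq start regions are shared. HARS, the cytosolic histidine enzyme (140052757 to 140071608), had 87.4, 74.3 and 74.0 CPM before and 79.8, 77.2 and 76.6 CPM after camptothecin in the parent, with overlapping groups (-0.01 ± 0.07, edgeR adjusted p = 0.906). HARS2 (140071010 to 140078888) rose from 31.6, 31.9 and 31.7 CPM to 37.9, 40.23 and 38.6 CPM with no overlap (0.30 ± 0.07, adjusted p = 0.0026). With reads in stretches that no other gene overlaps, the HARS2 change was 0.29 (adjusted p = 0.00334). In introns the pair went the other way round: HARS rose by 0.32 (adjusted p = 0.00817) and HARS2 stood at -0.31 (adjusted p = 0.0745). The exon change was below the intron change by 0.34 for HARS (adjusted p = 0.0119) and above it by 0.60 for HARS2 (adjusted p = 0.00252). Whether HARS and HARS2 differ from each other was not tested.

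That contrast of exon and intron reads extended to many members in parent cells. The exon change was below the intron change for 12 of 20 cytosolic and 5 of 14 mitochondrial members, against 10.1% of all genes, and above it for FARSA, HARS2 and YARS2 (8.37% of all genes, or 18.4% in both directions). Of the 8 members of the multisynthetase complex 7 were among the 12, all but DARS, and of the other 12 cytosolic members 5 were (FARSB, HARS, NARS, SARS and WARS). This split was made after the values were seen and was not tested. The LARS and RARS gaps each ended in 10 of 13 alternatives, that of QARS in 5 and those of EPRS and MARS in 3. Only IARS and KARS in the complex, and FARSB, NARS and WARS outside it, kept the gap whichever library was left out. The largest gaps in either direction were those of YARS2 (0.82 ± 0.12, edgeR adjusted p = 0.000281) and, downwards, WARS2 (-0.76 ± 0.13, adjusted p = 0.000993), WARS (-0.63 ± 0.15, adjusted p = 0.00843), with HARS2 (0.60 ± 0.12) and KARS (-0.59 ± 0.10, adjusted p = 0.00119) next. In intron reads alone 5 cytosolic members rose in parent cells (CARS, HARS, KARS, MARS and QARS) and 3 fell (DARS, FARSA and YARS), while 12.1% of all genes rose and 14.2% fell (26.3% in all). Their median was 0.12. WARS2 introns went from 20.1, 20.6 and 22.5 CPM to 25.7, 30.3 and 37.8 CPM, a rise of 0.57 ± 0.12 (adjusted p = 0.000907) with no overlap of groups (39.8% of all genes in introns), while its exon reads stood at -0.20 (adjusted p = 0.071). DARS was the member that fell in both kinds of reads, its introns going from 158, 149 and 148 CPM to 107, 109 and 118 CPM (-0.44 ± 0.07, adjusted p = 4.05e-05).

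Overlapping genes and library choice set limits to these counts. With reads outside other genes, the intron rises of MARS and KARS were 0.01 (adjusted p = 0.964) and 0.05 (adjusted p = 0.788), and the gap of MARS was -0.05 (adjusted p = 0.771), whereas that of KARS was -0.32 (adjusted p = 0.0213) and that of WARS -0.61 (adjusted p = 0.0065). The DNM1L gene covers most YARS2 intron reads, of which 7.42% lay outside other genes, and the YARS2 gap was 0.51 there (adjusted p = 0.0658). FARSB, IARS, KARS, NARS, WARS, HARS2, LARS2, NARS2, WARS2 and YARS2 kept a called gap in each of the 12 fits without 1 library. With parent control replicate 1 left out the 12 cytosolic members were 9, where 1682 of all genes had such a gap, beside 1747 with all libraries. Without treated parent replicate 1, 2 or 3 the 12 were 6, 7 and 6, where 1221, 1126 and 1091 genes had it. The 5 mitochondrial members were 3 without treated parent replicate 2. The intron rises were 3 cytosolic members without any 1 treated parent library, where 1751 to 1787 of all genes rose. They were 8 without treated knockout replicate 3, where 2644 genes rose, beside 2400 with all libraries.

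**Figure D4:**
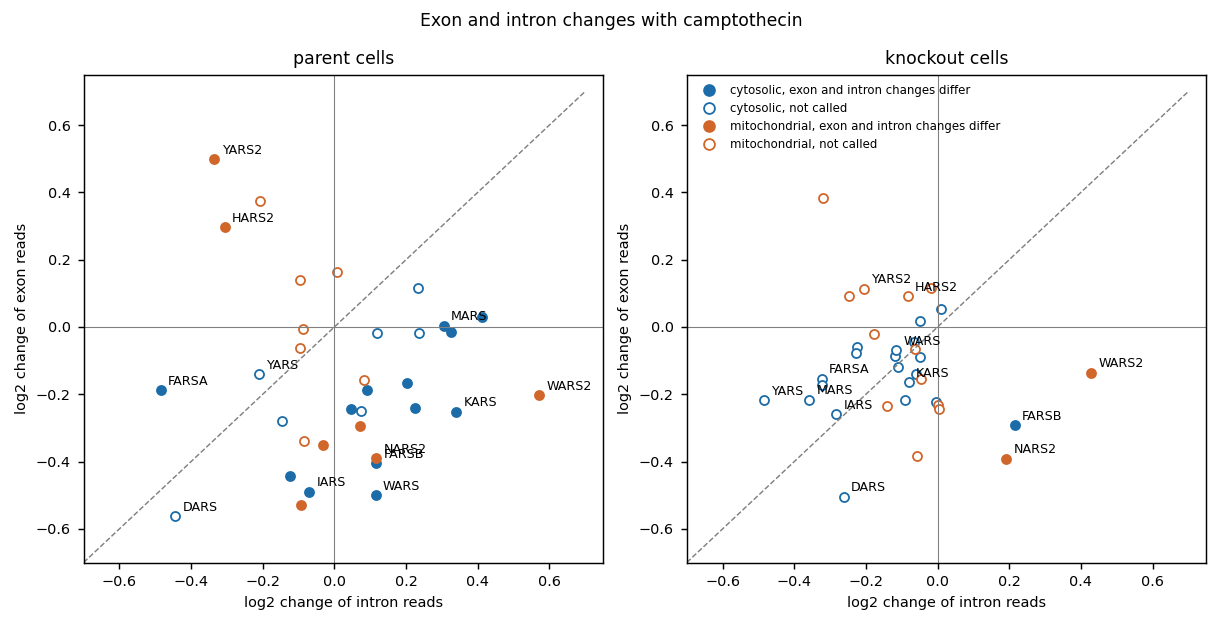
Log2 change with camptothecin in exon reads (y) against that in intron reads (x) for 34 members in parent (left) and knockout cells (right), and the line of equal change. Filled points are members whose exon and intron changes differ by edgeR's test: 20 members in parent cells, 17 of them under the line, and 3 in knockout cells.

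The third comparison asked how the knockout cells responded to the same treatment. With all libraries fitted, fewer members passed the test than in parent cells. Of 20 cytosolic members 5 fell (DARS, FARSB, IARS, EPRS and MARS) and none rose, where 9.28% of all genes fell and 7.3% rose (16.6% in all). Of 15 mitochondrial members 4 fell (NARS2, LARS2, IARS2 and SARS2) and PARS2 rose. The order of the cytosolic counts in the 2 genotypes turned without parent control replicate 1, as given below. DESeq2 also called 0 cytosolic members higher, and 0 had an unadjusted p under 0.05 in edgeR. Groups did not overlap for 13 cytosolic and 9 mitochondrial members, against 38.5% of all genes. The cytosolic median was -0.15 and the mitochondrial one -0.07, beside 0.02 for all genes. With library size alone as the scale these medians were 0.01 and 0.09, where the median of all genes had moved to 0.17, so relative to all genes the cytosolic median was -0.16 on the first and -0.17 on the second scale, and the mitochondrial one -0.08 on both.

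DARS had 131, 135 and 129 CPM before and 94.5, 97.2 and 86.8 CPM after camptothecin, a change of -0.50 ± 0.07 (edgeR adjusted p = 5.96e-05) with no overlap. NARS2 went from 34.1, 36.2 and 32.3 CPM to 24.9, 27.7 and 25.6 CPM, a change of -0.39 ± 0.07 (adjusted p = 0.000604). LARS2 went from 67.1, 69.5 and 66.6 CPM to 52.5, 51.3 and 52.21 CPM, a change of -0.38 ± 0.06 (adjusted p = 0.000495). These 3 genes had been lower in treated parent libraries too, and the groups were apart in each. FARSB, a subunit of the phenylalanine enzyme (chromosome 2, 223435254 to 223521055), went from 51.7, 55.17 and 50.4 CPM to 41.98, 43.01 and 43.5 CPM (-0.29 ± 0.07, adjusted p = 0.0109). PARS2 rose from 7.85, 7.35 and 7.90 CPM to 10.4, 9.65 and 10.1 CPM (0.38 ± 0.10, adjusted p = 0.0124), also without overlap. SARS2 went from 29.4, 30.7 and 30.5 CPM to 25.2, 27.0 and 24.6 CPM (-0.23 ± 0.06, adjusted p = 0.0194). Outside other genes its change was -0.08 (adjusted p = 0.789).

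DARS, LARS2, NARS2 and IARS2 fell in each of the 12 fits without 1 library, while the cytosolic count depended on which libraries entered. Under other settings the NARS2 calls ended with total gene reads (-0.08, adjusted p = 0.461, and -0.13, adjusted p = 0.136, in parent cells) and the knockout IARS2 call with library size alone (-0.08, adjusted p = 0.302). Parent control replicate 1 has no part in this contrast but enters the shared estimate of the spread, and without it 11 cytosolic members fell, against 14.3% of all genes. That was more than fell in parent cells in the same fit. With only the 6 knockout libraries fitted 10 did, where 3170 of 22077 genes fell, beside 2184 of 23546 with all libraries. Leaving out knockout control replicate 1, 2 or 3 gave 3, 1 and 2, where 1574, 1537 and 1582 of all genes fell. Leaving out treated knockout replicate 1 or 3 gave 3 in each case, where 1609 and 1977 genes fell. LARS went from 186, 185 and 189 CPM to 160, 166 and 155 CPM (-0.22, adjusted p = 0.0725) and was called without parent control replicate 1 (adjusted p = 9.8e-05). SARS, with 90.8, 95.0 and 87.5 CPM after treatment, stood at -0.06 (adjusted p = 0.806). The mitochondrial count of rises was 2 without parent control replicate 1 (13.0% of all genes rose). It was 0 without knockout control replicate 2 or treated knockout replicate 1, where 1034 of 24410 and 1090 of 24285 genes rose.

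In knockout introns 6 cytosolic members fell (DARS, FARSA, IARS, MARS, TARS and YARS), against 9.05% of all genes, and WARS2 rose by 0.43 ± 0.12 (edgeR adjusted p = 0.0162; 7.85% of all genes rose, and 16.9% were called in all), a call that ended without knockout control replicate 1 or 2 or treated knockout replicate 3. YARS introns went from 71.5, 67.9 and 74.8 CPM to 52.3, 52.6 and 48.3 CPM (-0.48 ± 0.07, adjusted p = 7.28e-05). MARS introns outside other genes stood at -0.21 (adjusted p = 0.114). The exon change was below the intron change for FARSB (-0.50), NARS2 (-0.58) and WARS2 (-0.56), where 5.17% of all genes were called in this direction, 1.91% in the other and 7.08% in all. The WARS2 gap was not called without knockout control replicate 1 or 3 or treated knockout replicate 3. With parent control replicate 1 left out this gap was called for 3 cytosolic and 4 mitochondrial members, and for 1541 of all 17731 genes tested. All 3 named genes had the gap in parent cells as well. The shares of intron reads were 28.7% to 29.8% in treated parent and 30.4% to 33.6% in treated knockout libraries, and the part of this difference was not tested.

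The fourth comparison tested whether the responses differed between genotypes. It subtracts the parent response from the knockout response, and it shares libraries with each of the other comparisons, so its values are given beside theirs and not counted as separate support. In exon reads 3 members were called: WARS upwards, where 1.84% of all genes were, and MARS2 and YARS2 downwards, where 4.47% were (6.32% in all). WARS had 88.1, 96.1 and 90.7 CPM in untreated and 84.2, 92.9 and 84.9 CPM in treated knockout cells. Those groups overlapped (-0.07, adjusted p = 0.583) where the parent groups had not (-0.50), and the difference was 0.43 ± 0.10 (edgeR adjusted p = 0.0141). Only 30.02% of WARS exon reads lay outside other genes, and there the difference was 0.39 (adjusted p = 0.031).

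MARS2 had 31.3, 31.4 and 29.0 CPM in untreated and 32.1, 32.6 and 31.4 CPM in treated knockout libraries, all above the untreated parent libraries. Its response was 0.07 in the knockout (adjusted p = 0.593), and the difference was -0.40 ± 0.10 (adjusted p = 0.0213). YARS2 had 19.2, 19.0 and 20.7 CPM in untreated and 22.4, 21.5 and 19.9 CPM in treated knockout cells. These overlapped (0.11, adjusted p = 0.323), and the difference was -0.38 ± 0.10 (adjusted p = 0.0272). Among 12 fits with 1 library less, the WARS call was lost in 3 (without treated parent replicate 3, knockout control replicate 1 or treated knockout replicate 2), the MARS2 call in 5 and the YARS2 call in 9. When parent control replicate 1 was left out all 3 passed (adjusted p = 0.000232 for WARS, 0.00382 for MARS2 and 0.00457 for YARS2), and CARS (-0.27), MARS (-0.21), YARS (-0.19) and SARS2 (-0.26) joined downwards, with 9.3% of all genes called downwards and 5.1% upwards. HARS2, at -0.20 (adjusted p = 0.256), and IARS, at 0.23 (adjusted p = 0.17), were among the 32 members not called.

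**Figure D5:**
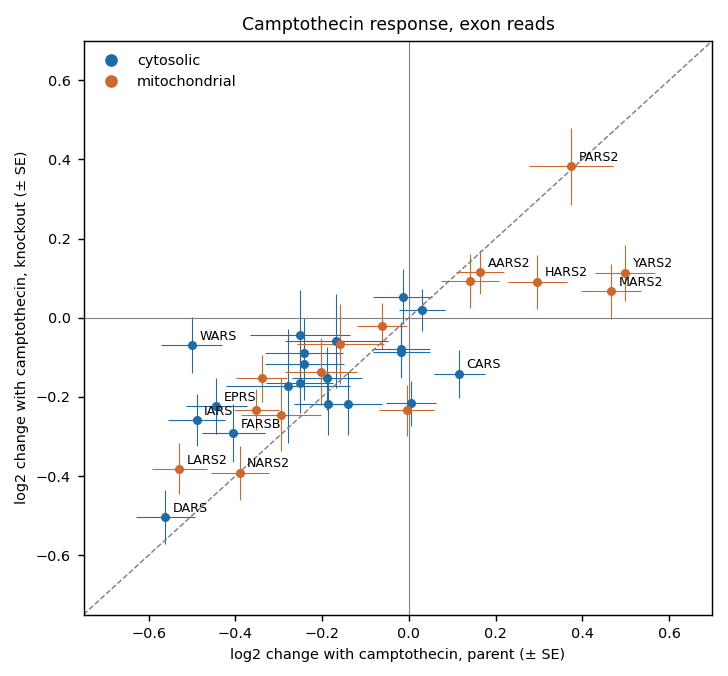
Log2 change of exon reads with camptothecin in knockout cells (y) against parent cells (x) for the 35 members, with SE bars and the line of equal change. DARS, LARS2 and NARS2 lie at the lower left and PARS2 at the upper right near the line, while WARS (-0.50 and -0.07), YARS2 (0.50 and 0.11) and MARS2 (0.47 and 0.07) lie off it.

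In introns the difference of responses was called for 3 cytosolic members, all downwards (2.81% of all genes, beside 3.0% upwards and 5.82% in all): MARS at -0.66 ± 0.11 (edgeR adjusted p = 0.000564), KARS at -0.42 ± 0.11 (adjusted p = 0.029) and SARS at -0.43. Most intron reads of MARS and KARS, all but 36.1% and 35.9%, lay where other genes overlap, and outside them the differences were -0.21 (adjusted p = 0.365) and -0.06 (adjusted p = 0.871). Among the genes that overlap MARS, DDIT3, a stress gene, rose by 1.35 in the parent and fell by 0.39 in the knockout, with a difference of -1.74 in exon reads. ARHGAP9, which also overlaps MARS, fell by 0.57 and 0.37, with a difference of 0.20 (adjusted p = 0.229). TERF2IP, which overlaps KARS, stood at 0.07 and -0.11, with a difference of -0.19 (adjusted p = 0.671). The part of these genes in the MARS and KARS intron values was not tested. SARS has no overlapping gene. Its introns went from 60.2, 54.18 and 53.7 CPM to 64.1, 65.4 and 64.1 CPM in parent cells and from 38.1, 41.7 and 36.1 CPM to 32.8, 35.3 and 31.0 CPM in knockout cells. Treated libraries were thus above all controls in the parent (0.20, adjusted p = 0.0711) and below them in the knockout (-0.23, adjusted p = 0.0713), and the difference was -0.43 ± 0.12 (edgeR adjusted p = 0.0311). That call ended in 9 of 12 fits without 1 library. Of all cytosolic members 16 of 20 had an intron difference below 0, with a median of -0.25 beside 0.03 for all genes. At an unadjusted p under 0.05, for which no share over all genes is given here, 10 passed, all downwards. The called count was 6 without parent control replicate 1, where 1010 of 20381 genes were called lower, beside 560 of 19908 with all libraries. It was 1 without treated parent replicate 1, knockout control replicate 1 or 2, or treated knockout replicate 1 or 3. In those fits 353 to 523 genes were called lower. The difference between exon and intron reads in this comparison was called for 0 of 34 members by edgeR, while 0.501% of all genes were called, 0.213% upwards. An unadjusted p under 0.05 was found for 12 members (10 cytosolic upwards, 2 mitochondrial downwards). No share over all genes is given here at that threshold. Without parent control replicate 1 that exon and intron difference was called upwards for 4 cytosolic members, and for 253 of all 17731 genes tested.

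The pathway lists were read in the same 3 comparisons of exon reads. Of all genes 16.8% were higher and 17.1% lower in parent cells, and 7.3% and 9.28% in knockout cells. For the difference the shares were 1.84% and 4.47%. Without parent control replicate 1, the deepest library, the shares were 19.0% and 17.4%, 13.0% and 14.3%, and 5.1% and 9.3%. A count near the shares of its own fit is no result about a list. Of 33 amino acid response genes 14 rose and 4 fell in parent cells, among them the phosphatase subunit PPP1R15A (1.95), CHAC1 (1.48), SESN2 (1.45) and DDIT3 (1.35). In knockout cells 5 rose and 3 fell, led by DDIT4 (-1.04), CHAC1 (0.58), SESN2 (0.47) and ATF5 (0.42). The difference was called downwards for 11, such as PPP1R15A (-1.82) and DDIT3 (-1.74), and upwards for PSAT1 (0.33). Without that deepest library the counts were 17 and 5, 11 and 4, and 14 and 3. Of 35 genes of tRNA maturation and export 11 rose and 3 fell in parent cells, with the tRNA methylation genes TRMT61A (0.75) and METTL1 (0.63) and the RNase P subunit RPP14 (0.61) in front. In knockout cells 4 rose, POP7 (0.41), TRMT5 (0.38), RPP14 (0.30) and TRMT61A (0.30), and the difference was called for METTL1, TRMT61A and RPP14, all downwards. Without it the knockout counts were 12 up and 3 down, and 7 genes had a lower difference and 1 a higher. Of 22 RNA polymerase III genes 9 rose and 3 fell in parent cells (BRF2 1.03, POLR3C 0.56 and POLR3F 0.52), 4 rose and 1 fell in knockout cells, and 3 differed, all downwards. Without that library the knockout counts were 7 and 4, and 7 differed. The partners of mitochondrial charging had 2 calls in parent cells, GTPBP3 (0.45) and PET112 (-0.55), and GTPBP3 rose in knockout cells (0.43). With parent control replicate 1 left out 4 of these 7 genes rose and 1 fell in parent cells, 1 rose and 2 fell in knockout cells, and 3 had a lower difference, where the full set of libraries gave 0.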

How the data were processed

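The deposited tables hold, per the file headers, whole-number read counts per gene over its exons, its introns and the stretches that no other gene overlaps, and TPM values scaled by the authors, which no test used. Per the submitters' processing notes, which state no roles, the tools were STAR 2.5.4a, Picard 2.9.2, Trimmomatic 0.39 and Trim Galore 0.6.2, with build hg19. File names mark removed duplicates, which compresses abundant transcripts. Counting tool, annotation and strand setting: not given in the sources used here. Overlapping and antisense genes can therefore not be told apart.

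Exon counts of 12 libraries (4 groups of 3) were fitted in edgeR 4.0.16 (limma 3.58.1, R 4.3.3): filterByExpr kept 23546 genes, with TMM scaling, a robust quasi-likelihood fit, a mean per group and Benjamini-Hochberg adjustment over all genes. A gene was called at an adjusted p below 0.05. Introns had their own fit (19908 genes). The exon and intron change were compared by a region-by-group term with library as a block (17351 genes). Levels are CPM of the TMM-scaled library, and RPKM divides them by exon length. The SE is the log2 change before shrinkage over the root of F, so it restates the test. The fitted variation between libraries of a group, beyond counting noise, was 11.7% in exon and 10.5% in intron counts, and it may be technical. A gene that a library's table does not list was given 0, and the largest counts are deposited with 6 significant digits. Up to 32 Y copies of pseudoautosomal genes per table were left out. Fits were tested on simulated data. Alternatives were DESeq2 1.42.0, library size alone, no filter, unique or total reads, only the groups compared, a replicate block, the exon table's scale for introns and each library left out. List counts without parent control replicate 1 were added after seeing the data.

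Members, lists and tests were chosen with earlier results of these data known. Named with values in every library were members called in the difference of responses, up to 4 largest rises and falls among called members in each other exon comparison, LARS, SARS, LARS2, SARS2, HARS, HARS2 and SLFN11, and for lists up to 4 called genes. Start regions come from RefSeq on GRCh38.p14, gene positions from the deposited hg19 tables.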

Additional observations from a re-analysis of the deposited data

Results flagged for a closer look

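The camptothecin response of 3 members differed between parent and knockout cells in exon reads by a test of the difference itself (knockout minus parent, 3 libraries a group). It was 0.43 for WARS, -0.40 for MARS2 and -0.38 for YARS2 on the log2 scale. In intron reads the same test marked MARS (-0.66), KARS (-0.42) and SARS (-0.43). Most intron reads of MARS and KARS lie where other genes overlap. Outside those stretches the differences were -0.21 (edgeR adjusted p = 0.365) and -0.06 (adjusted p = 0.871), and the part of the overlapping genes was not tested. MARS2 lies wholly inside another annotated gene. Groups of 3 libraries are too small for the check for outlying samples.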

How the results depend on the processing

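Recomputed counts stayed within 1.5 times the main count in 652 cases and did not in 100. With DESeq2 and with the replicate block every count did. Replicate numbers did not pair the libraries: deviations of same-numbered libraries correlated at -0.03 to 0.04 and those of other numbers at -0.07 to 0.05. With the replicate block, in place of the unblocked fit, the untreated count of lower cytosolic members was 11, RARS lost its call in parent cells (-0.23, adjusted p = 0.0511), and NARS (-0.23, adjusted p = 0.0452) and the introns of AARS (0.23) gained theirs there. With total gene reads YARS2 reversed: -0.12 in parent cells (adjusted p = 0.271) and 0.0068 for the difference of responses (adjusted p = 0.984). The DNM1L gene covers most YARS2 intron reads.

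With library size alone the median of all genes moved from 0.01 to 0.14 in parent cells, from 0.02 to 0.17 in knockout cells and from -0.01 to 0.08 untreated. Genes called higher and lower went from 3961 and 4017 to 5731 and 2791 (parent), from 1718 and 2184 to 4693 and 1274 (knockout), and from 1945 and 1752 to 2861 and 1073 (untreated). The untreated cytosolic median was then -0.15, or -0.23 relative to all genes, as before. Under that scale 2 cytosolic members were higher in parent and 2 in knockout cells, 1 cytosolic and 2 mitochondrial members were lower and 5 mitochondrial members higher in knockout cells, 3 mitochondrial members were higher untreated, and the difference was higher for 2 cytosolic and lower for 1 mitochondrial member. Of 23546 genes 860 had a higher and 996 a lower difference there. With total gene reads 1 cytosolic and 2 mitochondrial members rose and 3 mitochondrial fell in parent cells, 0 mitochondrial rose and 2 fell in knockout cells, and the difference was lower for 2 cytosolic and 1 mitochondrial member. Of 26425 genes 4292 then rose and 4234 fell in parent cells, 2164 and 2294 in knockout cells, and 1268 had a lower difference. With unique exon reads 3 mitochondrial members rose in parent cells, 0 were higher untreated and 1 had a lower difference, as 1 did with no filter. Of 15928 genes with unique exon reads 3171 rose, 1690 were higher untreated and 934 had a lower difference. With no filter 1147 of 39992 genes had a lower difference. With only the groups compared 2 cytosolic members were lower and 0 mitochondrial higher untreated, and 10 cytosolic fell in knockout cells. Of 21724 genes 788 were lower and 1316 higher untreated, and 3170 of 22077 fell in knockout cells. On the exon table's scale, introns of 2 cytosolic members fell in knockout cells and 1 had a lower difference, where 856 and 264 of 19908 genes did. With unique introns 1 cytosolic had a lower difference, 1 cytosolic rose in knockout cells and 0 mitochondrial fell in parent cells. Of 15776 genes 460, 1412 and 2132 did so. With unique reads the exon change exceeded the intron change for 1 mitochondrial member in parent cells, for 1 cytosolic and 1 mitochondrial in knockout cells and for 1 cytosolic member in the difference. Of 13169 genes it did for 1253 in parent cells, 345 in knockout cells and 46 in the difference. The cause of these shifts was not tested.

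With each library left out in turn, exon counts ran from 6 to 13 cytosolic lower, 0 to 2 mitochondrial higher and 0 to 1 lower untreated; from 5 to 11 cytosolic lower, 0 to 1 higher, 4 to 5 mitochondrial higher and 4 to 6 lower in parent cells; and from 1 to 11 cytosolic lower, 0 to 2 mitochondrial higher and 3 to 6 lower in knockout cells. For the difference they were 0 to 1 cytosolic higher, 0 to 3 lower and 0 to 3 mitochondrial lower. Of all genes 998 to 2279 were lower untreated, 3249 to 4224 in parent and 1537 to 3483 in knockout cells, and 720 to 2262 for the difference. Higher were 1387 to 2331, 3142 to 4609, 945 to 3157 and 179 to 1241 in the same order. Intron counts were 9 to 9 cytosolic and 0 to 1 mitochondrial lower untreated, 3 to 8 cytosolic higher and 0 to 1 mitochondrial lower in parent cells, 0 to 1 cytosolic higher, 4 to 7 lower, 0 to 1 mitochondrial higher and 0 to 1 lower in knockout cells, and 1 to 6 cytosolic lower for the difference. Of all genes in introns 768 to 1555 were lower untreated, and 1751 to 2656 higher and 2214 to 3056 lower in parent cells. In knockout cells 955 to 2233 were higher and 1237 to 2607 lower, and 353 to 1010 had a lower difference. Exon minus intron counts were 6 to 12 cytosolic lower, 0 to 1 higher and 3 to 5 mitochondrial lower in parent cells, 1 to 3 cytosolic lower, 0 to 1 higher, 1 to 4 mitochondrial lower and 0 to 1 higher in knockout cells, and 0 to 4 cytosolic higher for the difference. Of all genes 1091 to 1942 were lower and 872 to 1751 higher in parent cells, and 550 to 1541 and 143 to 934 in knockout cells. For the difference 9 to 253 were higher.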
